A study of Mus musculus with 3 samples.

Results

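Small nucleolar RNA (snoRNA) genes were measured in thymocytes, the T cell precursors that mature in the thymus, from 3 wild-type mice. Members were the genes whose platform annotation gives a single symbol beginning with Snord or Snora and a digit, and 51 of the 19938 genes named on the array met this rule. They comprised 31 C/D box genes (Snord) and 20 H/ACA box genes (Snora), read by 56 probe sets in all. The RNA, isolated with Trizol and carrying a biotin label, was read on 1 Affymetrix mouse gene array per mouse. The mice, numbered 92, 103 and 106, were of genotype wt on a mixed FVB and C57BL6 background, and the labels record 0.3 µg of RNA and a RIN number of 3 for each, without saying whether 3 is a measured RNA integrity number or a code. The labels give no age, sex or treatment, and they carry a T cell lymphoma entry under disease state although title and genotype read wild type. The study profiled such thymocytes beside invasive lymphomas of tPTEN-/- mice. The lymphoma arrays were not analysed here, so the values are levels and spread within 1 group. All levels are on the log2 scale, and the number of arrays, 3, limits their precision.

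The snoRNAs are short RNAs of the nucleolus that guide chemical changes of ribosomal RNA by base pairing. C/D box RNAs carry the protein Fibrillarin to sites of ribose methylation, and H/ACA box RNAs carry Dyskerin to sites where uridine becomes pseudouridine. A few members of either class instead direct the cutting of the ribosomal RNA precursor. In mammals most snoRNAs lie in introns of host genes and are trimmed from the excised intron. Some of those hosts code for ribosomal proteins and others have exons that code for no protein. A probe within a snoRNA also pairs with the unspliced host transcript, so the mature RNA and its precursor cannot be told apart in these values.

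The box motifs that give the classes their names are visible where the RefSeq tables (GRCm38.p6) hold part of a snoRNA. The annotated hairpin of Mir5121, on the minus strand at chr7:45126918-45126945, covers 28 of the 82 bases of Snord33, a member. The overlap is shown with the C box motif UGAUGA, bases 7 to 12 of the stretch, in capitals.
Snord33: agcuugUGAUGAgacaucucccacucau
The 21 bases of the mature microRNA mmu-miR-5121 are the first 21 of this stretch. For the H/ACA class, the hairpin of Mir664, on the plus strand at chr1:185242975-185243038, covers 64 of the 113 bases of Snora36b. That gene is no member, because its probe set lists both symbols, and it is shown only for its ACA box, in capitals, which is followed by 3 bases at the end of the gene.
Snora36b: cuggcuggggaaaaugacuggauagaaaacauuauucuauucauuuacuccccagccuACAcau
The strand of both snoRNA genes was taken from the hairpins. RefSeq gives the C/D members a median length of 68 bases (45 to 148) and the H/ACA members one of 125 bases (61 to 205).

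Nearly all snoRNA genes were read above background in thymocytes. Background was set on each array at the 95th percentile of 1209 genes of olfactory, vomeronasal or trace amine receptors, proteins of the sensory cells of the nose, and the thresholds were 5.91, 6.10 and 6.0 in mice 92, 103 and 106. Of the 51 members, 48 exceeded the threshold on all 3 arrays, compared with 61.8% of all named genes. All 20 H/ACA genes did, and 28 of 31 C/D genes. Among the other families of short or ribosome-linked RNAs, 109 of 291 microRNA genes and all 54 cytosolic ribosomal protein genes passed. Probes differ in affinity and the snoRNA probe sets are confined to short targets, so these shares describe the arrays and do not rank the families by abundance.

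**Figure D1:**
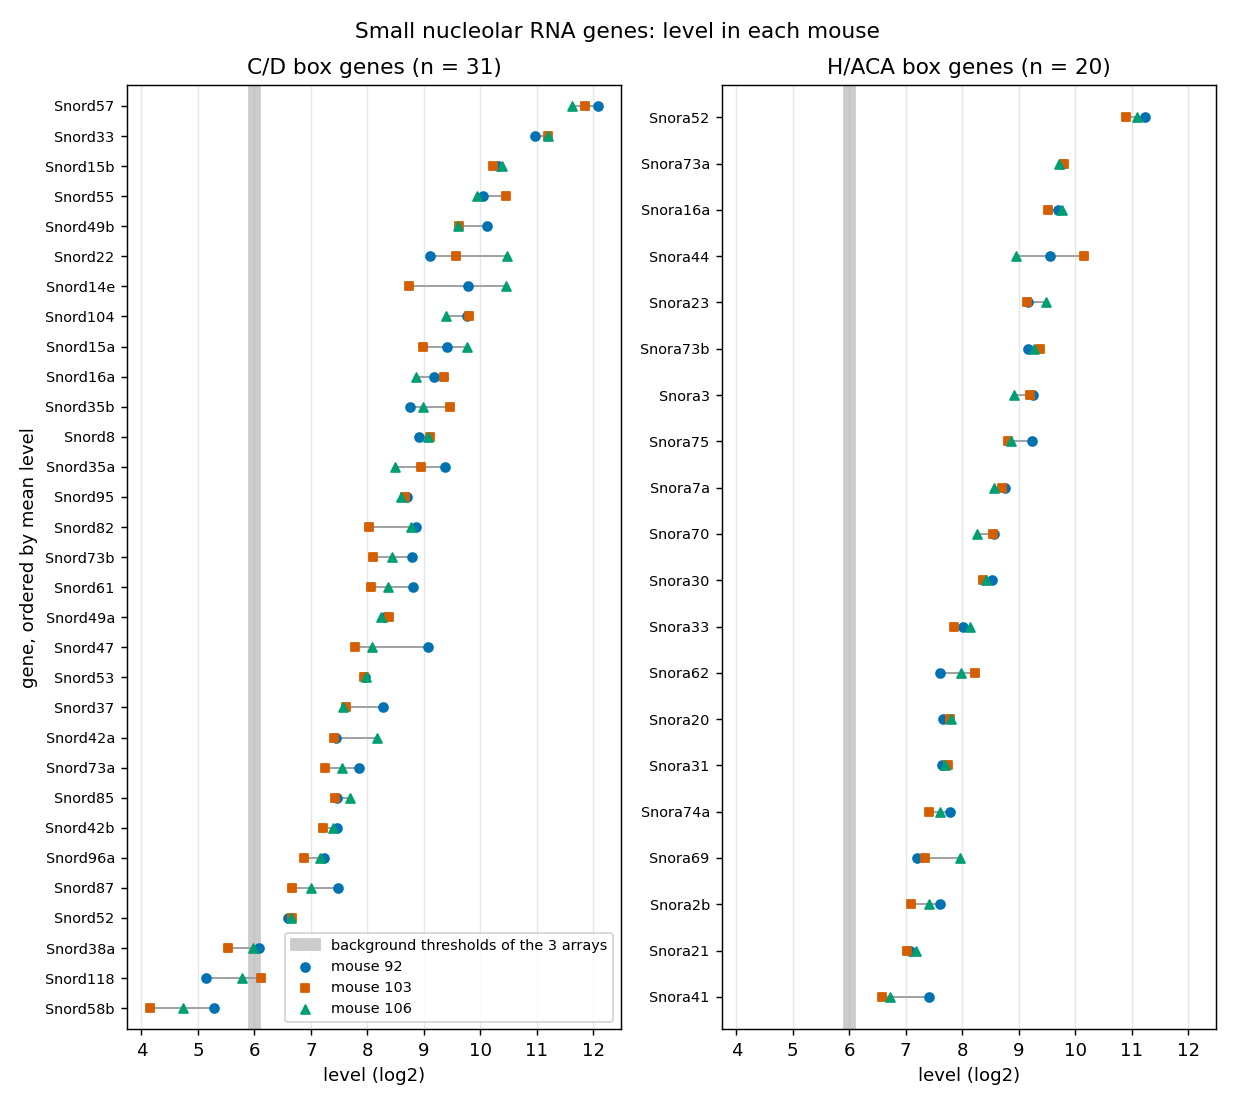
Level of each of the 51 snoRNA genes (log2) in mice 92, 103 and 106, with C/D box genes on the left and H/ACA box genes on the right, ordered by mean; grey lines join the lowest and highest mouse and the grey band spans the background thresholds, 5.91 to 6.10. Snord58b, Snord118 and Snord38a are the genes at or below the band, and Snord14e, Snord22, Snord47 and Snora44 have the widest spread.

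The 3 C/D genes that did not pass on every array were Snord58b, Snord118 and Snord38a. Snord118, the U8 RNA needed for maturation of the large-subunit ribosomal RNAs, was at 5.14, 6.11 and 5.78 in mice 92, 103 and 106, above the threshold in mouse 103 alone. It was also the 1 member that no other RefSeq gene contains. Snord38a was at 6.09, 5.53 and 5.98 and passed in mouse 92 alone. The levels of both therefore straddled the background. Snord58b, contained in Rpl17, was at 5.28, 4.15 and 4.73, below the threshold in every mouse. Its 2 probe sets differed by up to 0.16, and those of the other 4 members with 2 probe sets by at most 0.03. The passing C/D genes nearest the threshold were Snord52 (6.60, 6.66 and 6.65), Snord87 (7.48, 6.66 and 7.01) and Snord96a (7.24, 6.88 and 7.16).

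Among C/D genes, the highest mean level belonged to Snord57, which lies in Nop56, the gene of a core protein of the C/D particle itself. Snord57 was at 12.09, 11.85 and 11.63 in mice 92, 103 and 106 (mean 11.85 ± 0.23, SD, n = 3). Snord33, in Rpl13a, guides methylation of the small-subunit ribosomal RNA and was at 10.97, 11.21 and 11.21 (11.13 ± 0.14). Snord15b, in Rps3, was at 10.32, 10.22 and 10.39 (10.31 ± 0.09), and its 3 mice lay closest together among the top C/D genes. Snord55 followed at 10.05, 10.45 and 9.95 (10.15 ± 0.26) and Snord49b, in the non-coding gene 2410006H16Rik, at 10.12, 9.62 and 9.61 (9.79 ± 0.29). The order of these genes does not show which RNA was more abundant, since each is read by its own probes.

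Among H/ACA genes, Snora52 had the highest mean. It lies in Rplp2, the gene of a ribosomal stalk protein, and was at 11.24, 10.90 and 11.09 (11.08 ± 0.17, SD, n = 3). Snora73a and Snora73b, the U17 RNAs that act in cleavage of the ribosomal RNA precursor, are both contained in the non-coding gene Snhg3. Snora73a was at 9.76, 9.80 and 9.71 (9.76 ± 0.04) and Snora73b at 9.17, 9.38 and 9.27 (9.27 ± 0.10). Both copies were thus nearly level between the mice. Snora16a (9.69, 9.52 and 9.76; 9.66 ± 0.13) and Snora44 (9.56, 10.15 and 8.95; 9.55 ± 0.60) share the host Snhg12. The lowest H/ACA genes were Snora41 in Eef1b2 (7.41, 6.58 and 6.72), Snora21 in Rpl23 (7.08, 7.03 and 7.19), Snora2b in Kansl2 (7.61, 7.09 and 7.41), Snora69 in Rpl39 (7.20, 7.35 and 7.96) and Snora74a in Snhg4 (7.78, 7.42 and 7.61). Even Snora41, the H/ACA gene nearest to background, lay 0.48 above the threshold on its dimmest array.

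No imprinted brain snoRNA was among the members. The Snord115 and Snord116 arrays of the Prader-Willi region are transcribed from the paternal chromosome, chiefly in neurons. The array has 24 probe sets whose annotation lists Snord116l1, Snord116l2 and Gm26504 together, so that no value can be given to any of these genes. These shared probe sets held 7 different sets of values, with medians of 3.08, 3.21 and 4.09 in mice 92, 103 and 106 and a highest value of 4.25, below every array's threshold. Their level was higher in mouse 106 than in the others, within the background range. Of the other genes of the imprinted snoRNA regions, Ndn (5.07, 4.95 and 5.04), Meg3 (5.56, 5.99 and 5.66) and Rian (4.36, 4.77 and 4.29), the host of a brain snoRNA cluster, were below the threshold in every mouse, and Magel2 (6.12, 6.07 and 5.76) passed in mouse 92 alone. Dlk1, at 7.08, 7.41 and 7.09, and Rtl1, at 6.10, 6.29 and 6.10, passed in all 3.

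The levels of many snoRNA genes, C/D genes above all, lay apart between the mice. The range from the lowest to the highest mouse had a median of 0.54 over the 30 C/D genes above background on at least 1 array (1.45-fold) and of 0.32 over the 20 H/ACA genes (1.25-fold), compared with 0.25 (1.19-fold) over all 13316 such genes. A range of 0.5 or more was found in 16 of 30 C/D genes and 5 of 20 H/ACA genes, compared with 10.0% of all genes. Snord118 and Snord38a are among the 16, and each entered only through the 1 mouse in which it was highest and above background. Among genes above background on all 3 arrays, a choice made after the data were seen, 14 of 28 C/D and 5 of 20 H/ACA genes reached 0.5, compared with 8.66% of all such genes, and the C/D median was 0.50. The medians were 0.29 for 121 microRNA genes and 0.22 for 54 ribosomal protein genes, whose ranges reached 0.5 in 21 and 6 cases. The difference between the C/D and H/ACA classes was not tested, because genes of 3 shared arrays are not replicates. Range had little relation to length (Spearman's rho -0.06 across the 50 genes) or to mean level (rho -0.03). Within the classes, the rho of range with length was 0.22 for the 30 C/D genes and -0.05 for the 20 H/ACA genes. All are descriptions across genes read on the same 3 arrays.

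**Figure D2:**
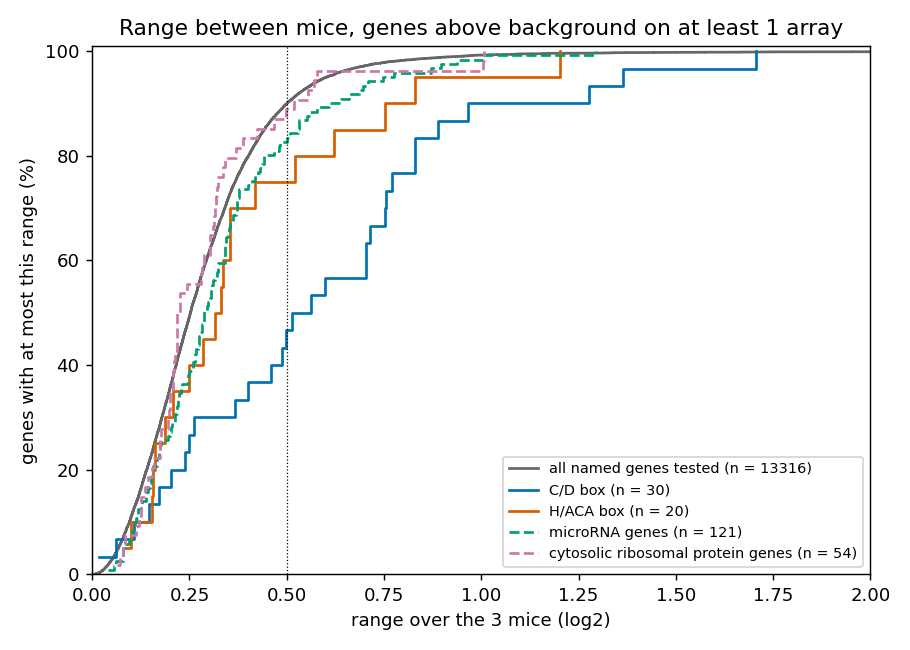
Share of genes (%) whose range over the 3 mice (log2) is at most the value on the x axis, for all named genes above background on at least 1 array and for 4 gene families; the dotted line marks 0.5. At the dotted line the C/D curve is the lowest, with 16 of its 30 genes at 0.5 or more, and the H/ACA curve lies between it and all genes. At the narrowest ranges the C/D and H/ACA curves cross.

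The spread was tested gene by gene with limma, which set each gene's variance between the mice against that of genes of like level and adjusted the p-values by Benjamini-Hochberg over all 13316 genes. Snord14e was the 1 member to pass at an adjusted p under 0.05, where 0.225% of all genes passed. At an unadjusted p under 0.05 stood 18 of the 50 tested members, 14 of them C/D and 4 H/ACA, compared with 4.85% of all genes. Snord118 is among the 14, and of the genes above background on all 3 arrays 17 of 48 members and 625 of 12314 genes stood below that p. Of microRNA genes 12 of 121 and of ribosomal protein genes 4 of 54 did so. The count of 18 was 12 without mouse 92, 11 without mouse 103 and 15 without mouse 106, where 739 of 13094, 761 of 13133 and 745 of 13206 genes stood below that p. Nothing in the labels beyond the mouse numbers tells how the samples were collected, and these p-values measure only the spread between the 3 samples. With 1 array per mouse, that spread includes measurement noise.

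Snord14e, a copy of the U14 RNA that guides methylation of the small-subunit ribosomal RNA and takes part in its release from the precursor, was at 9.79, 8.74 and 10.45 in mice 92, 103 and 106. The highest and lowest mice differed 3.26-fold, by 1.71 on the log2 scale (limma adjusted p = 0.0168). Mouse 103 was low and mouse 106 high. The call was lost in limma without mouse 103 (adjusted p = 0.525), and also after quantile normalisation (0.0862), centring on the array median (0.123) or cyclic loess (0.0941). With a robust prior the limma adjusted p was 0.0035 when all genes had the same prior degrees of freedom and 0.996 when each gene had its own. Probe sets that list Snord14c, Snord14d and the host Hspa8 together, and so belong to no single gene, read 10.23, 9.57 and 10.64 in the same order, also lowest in mouse 103 and highest in mouse 106. Because Hspa8 also contains Snord14e, these probe sets are not independent of it. The probe set that lists another copy, Snord14a, together with Rps13 read 8.95, 8.64 and 8.43, in another order, highest in mouse 92 and lowest in mouse 106.

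Snord22, Snord47 and Snora44 followed in range without passing. Snord22, the U22 RNA of ribosomal RNA processing, lies in the non-coding gene Snhg1 and was at 9.11, 9.58 and 10.48, a 2.58-fold range (limma adjusted p = 0.0627). Snord47, which guides methylation of the large-subunit ribosomal RNA, lies in Gas5 and was at 9.07, 7.79 and 8.08, a 2.42-fold range (limma adjusted p = 0.0909). Mouse 106 stood high for the former and mouse 92 for the latter, so that the wide ranges did not come from 1 mouse. Snora44 in Snhg12 was at 9.56, 10.15 and 8.95, a 2.30-fold range (limma adjusted p = 0.142), high in mouse 103 and low in mouse 106. Snord22 and Snord47 passed beside Snord14e with the robust prior and the same prior degrees of freedom for all genes (limma adjusted p = 0.0195 and 0.029), where 0.33% of all genes passed. With mouse 92 left out, 6 members passed limma's test (Snora44, Snord14e, Snord15a, Snord22, Snord42a and Snord82), where 58 of 13094 genes did. Snord22 was the 1 that passed without mouse 103, where 48 of 13133 genes did, and Snord14e and Snord47 passed without mouse 106, where 84 of 13206 genes did.

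The remaining wide ranges belonged to genes of several hosts. Snord35a, in Rpl13a, was at 9.37, 8.95 and 8.49 (limma adjusted p = 0.456). Snord82, in the nucleolin gene Ncl, was at 8.86, 8.03 and 8.78 (limma adjusted p = 0.426), low in mouse 103. Snora41 was 1.78-fold higher in mouse 92 than in mouse 103 (limma adjusted p = 0.614). Snora69 was highest in mouse 106, and Snora62, in the ribosomal protein gene Rpsa, was lowest in mouse 92 (7.61, 8.23 and 7.98), with ranges of 0.75 and 0.62. Snora75, also in Ncl, was at 9.23, 8.81 and 8.86 and Snora2b spanned 0.52. Snord53 in Wdr43, by contrast, was at 7.96, 7.95 and 7.97, the narrowest range of all members at 0.02.

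Mouse 103 held the lowest level of 15 of 30 C/D genes and of 10 of 20 H/ACA genes, where it did so for 28.3% of all genes tested. Mouse 92 held the highest level of 14 C/D and 9 H/ACA genes, where it did so for 37.4% of all genes. Mouse 103 was highest for 8 and 5 (39.1% of all genes) and mouse 106 for 8 and 6 (23.5% of all genes). Mouse 106 was lowest for 9 and 5 (36.6% of all genes) and mouse 92 for 6 and 5 (35.1% of all genes). The median deviation from the 3-mouse mean was 0.07, -0.12 and 0.01 in mice 92, 103 and 106 for C/D genes and 0.03, -0.07 and 0.01 for H/ACA genes, compared with 0.00, 0.02 and -0.02 over all genes tested. The C/D median in mouse 103 was -0.01 without mouse 92 and -0.08 without mouse 106, and the difference in order between families was not tested. Mouse 92 exceeded mouse 103 by 0.5 or more in 10 C/D genes, among them Snord47, Snord82, Snord87, Snord61 and Snord73b, where 2.73% of all genes did, and was below it by as much in 2, where 3.36% of all genes were. Among H/ACA genes it exceeded mouse 103 by as much in 2 and was below it in 2. Mouse 106 exceeded mouse 103 by 0.5 or more in 5 C/D genes and 1 H/ACA gene (1.04% of all genes) and was below it by as much in 1 H/ACA gene, Snora44 (1.93% of all genes). MicroRNA and ribosomal protein genes were ordered otherwise, with 68 of 121 and 30 of 54 lowest in mouse 92. The receptor genes that set the background were also lowest there, with medians of 4.0, 4.17 and 4.06 in mice 92, 103 and 106. The bearing of this on the tested microRNA genes, whose median level was 7.03, was not tested.

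**Figure D3:**
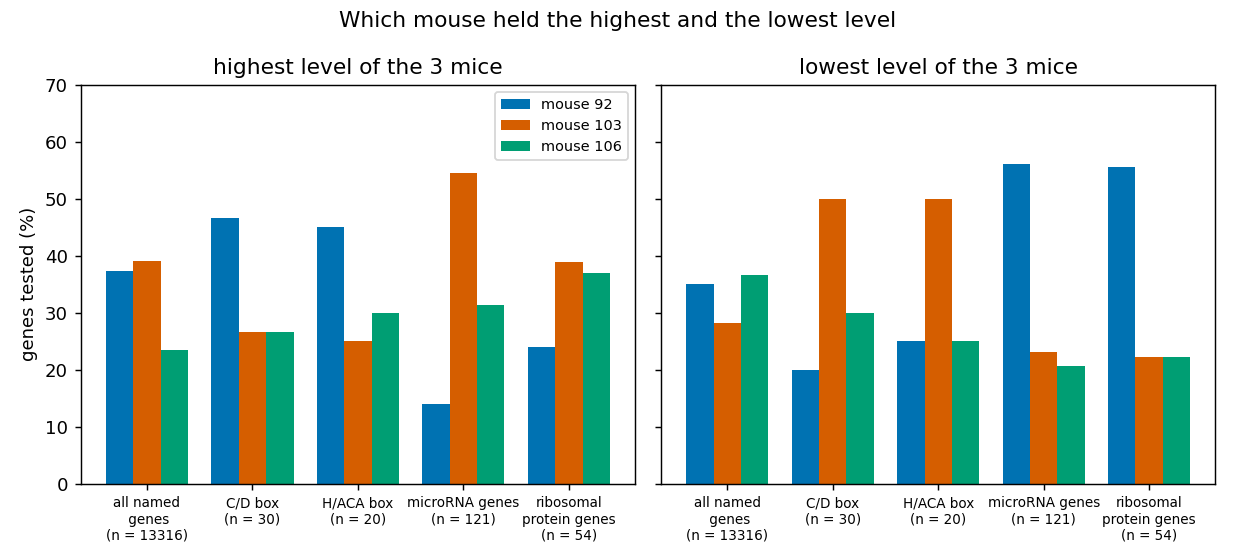
Share of the genes tested (%) whose highest level (left) or lowest level (right) was in mouse 92, 103 or 106, for all named genes and 4 gene families. Mouse 103 was lowest for 15 of 30 C/D and 10 of 20 H/ACA genes, and mouse 92 was lowest for 68 of 121 microRNA and 30 of 54 ribosomal protein genes.

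Markers of other cell types also differed between the mice, in another order. Neutrophil markers, of which 7 of 12 measured were above background on all 3 arrays, had median deviations of -1.13, 0.83 and 0.30 in mice 92, 103 and 106, and B cell markers (7 of 11) -0.60, 0.44 and 0.17. Erythroid markers (3 of 5) were at -0.64, 0.65 and 0.14, and macrophage and dendritic cell markers (8 of 9) at -0.23, 0.38 and 0.01. Each median was taken over the markers above background on at least 1 array, 11 for neutrophils and 10 for B cells. Of these, Elane, Mpo, Retnlg, Mmp8, Bank1, Cr2 and Fcer2a were below the threshold in mouse 92 and entered only through other mice. Their low levels in mouse 92 are limited by background. By median these lists were lowest in mouse 92, where the snoRNA medians of the deposited values were highest. After quantile normalisation or cyclic loess the H/ACA median was instead highest in mouse 106, at 0.03, against 0.01 and 0.02 in mouse 92. The C/D medians of mice 92 and 106 were then both 0.03. Single markers differed, with C1qa (8.06, 8.14 and 7.80) and C1qc (7.70, 8.32 and 7.35) lowest in mouse 106. The 9 measured thymocyte markers, Cd3e, Cd4, Cd8a and Rag1 among them, all passed, with median deviations of 0.04, -0.07 and 0.00. Among them Rag2, of the recombinase of T cell receptor genes, had the widest range, at 10.24, 9.41 and 9.91, lowest in mouse 103 as many snoRNA genes were. Cd3e, Cd4, Cd8a, Rag1 and Satb1 were also lowest in mouse 103, with narrower ranges. Ptcra, by contrast, was highest in mouse 103 (7.99, 8.18 and 7.99), and Cd3g was lowest in mouse 106 (13.33, 13.30 and 13.25). The part of other cells, or of thymocyte stages, in the snoRNA values was not tested, and in bulk RNA fewer cells of a type and less RNA per cell cannot be told apart. The array identifiers of mice 92 and 106 share 30 of 32 leading digits and that of mouse 103 shares 9 with either, and what the digits mean is not stated. Between mice 92 and 106, 4 C/D genes were higher by 0.5 or more in mouse 92 (2.73% of all genes) and 4 in mouse 106 (1.98% of all genes).

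Host genes could be assigned by position for 50 members, as the smallest RefSeq gene that contains the snoRNA gene, without regard to strand. The 40 hosts included ribosomal protein genes, which held 21 members, other protein-coding genes, which held 16, and non-coding genes, which held 13. The median range between mice was 0.49, 0.39 and 0.35 for the tested members of these host kinds. At an unadjusted limma p under 0.05 stood 7 of 20, 5 of 16 and 5 of 13, compared with 4.85% of all genes. Each of these shares was near that of all tested members, 18 of 50 (36.0%). For 27 tested members the host, 23 genes in all, had a probe set of its own. The snoRNA ranged more widely than its host in 19 of these 27 pairs, with a median range of 0.46 against 0.29 for the hosts. The snoRNA probe sets are confined to short targets. With 1 array per mouse, measurement noise and a difference between mice cannot be told apart in these ranges. Both were highest in the same mouse in 13 pairs and lowest in the same mouse in 15. For neither count was the share among unrelated genes computed. Across the 27 pairs, the difference between mice 92 and 103 in the snoRNA had a Pearson's r of 0.60 (Spearman's rho 0.46) with that in the host. The values were 0.50 (0.48) for mice 92 and 106 and 0.39 (0.36) for mice 106 and 103. These are descriptions across genes that share the arrays, and 4 hosts enter with 2 members each.

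**Figure D4:**
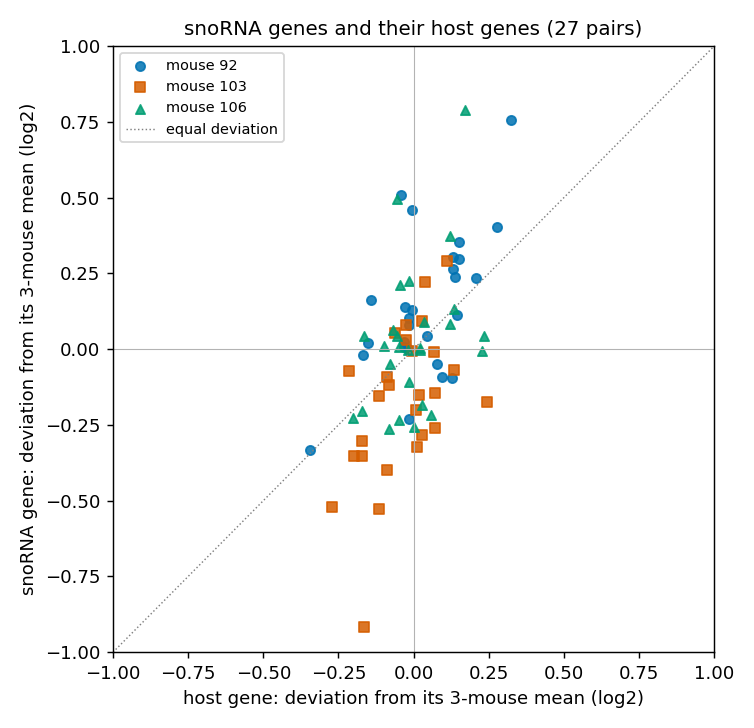
Deviation of each snoRNA gene from its 3-mouse mean (y axis, log2) against that of its host gene (x axis, log2) for 27 pairs in mice 92, 103 and 106; the dotted line marks equal deviation. Points spread further along the y axis than along the x axis, as in the 19 pairs whose snoRNA had the wider range.

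Hspa8, the constitutive heat shock chaperone gene that hosts Snord14e, was at 13.01, 12.85 and 13.18 in mice 92, 103 and 106. Its range was 0.34, against 1.71 for Snord14e, with the mice in the same order. Gas5, the host of Snord47, was at 10.23, 9.64 and 9.86, a range of 0.60 against 1.28, again in the same order. Nop56 (11.07, 10.86 and 10.66) followed the same order as Snord57, and Rbmx, the gene of an RNA-binding protein (11.29, 10.81 and 10.93), that of Snord61 (8.81, 8.06 and 8.36). In the elongation factor genes Eef2 and Eef1b2 the host was nearly level. Eef2 was at 12.84, 12.85 and 12.85 while its Snord37 was at 8.28, 7.62 and 7.57, and Eef1b2 was at 10.68, 10.73 and 10.75 while its Snora41 was at 7.41 in mouse 92 and 6.58 in mouse 103. None of these hosts passed limma's test.

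Snhg1 and Snhg12 carried no probe set of their own, and Snord22, Snora44 and Snora16a are shown without their hosts' levels. Non-coding hosts of this kind are known for transcripts that begin with a tract of pyrimidines, a feature shared with ribosomal protein genes. The starts of 4 of them are printed because they hold Snord22, Snord47, Snora44 and Snord49b, each with a range of at least 0.51, and no protein-coding host is printed. Snhg6, the non-coding host of Snord87 (range 0.83), was not among the starts available and is not printed. Each line gives 20 bases before and 30 from the RefSeq start (GRCm38.p6, plus strand), with the longest run of C and T near the start in capitals. They are Snhg1 at chr19:8723467-8723516, Gas5 at chr1:161035146-161035195, Snhg12 at chr4:132308658-132308707 and 2410006H16Rik at chr11:62602857-62602906.
Snhg1: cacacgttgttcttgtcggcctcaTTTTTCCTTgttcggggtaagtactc
Gas5: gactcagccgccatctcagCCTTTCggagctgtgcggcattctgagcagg
Snhg12: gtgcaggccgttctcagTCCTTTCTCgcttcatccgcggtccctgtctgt
2410006H16Rik: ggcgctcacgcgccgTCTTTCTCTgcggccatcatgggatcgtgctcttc
An unbroken run of at least 6 C or T that touches the window from 5 bases before to 10 bases after the start was present in 16 of the 30 hosts with a start in the table, and in 27.6% of all 27025 genes. Of the non-coding hosts not printed, Snhg3 had a run of 5, Gm36220 of 6 and 1110038B12Rik of 7. The run is a description of the letters and was not related to the levels.

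RNAs of the same host deviated alike in some pairs and not in others. By the naming rule the hosts with most measured members were to be described, and 10 hosts tied with 2 each. In 5 of these 10 pairs both members were highest in the same mouse, and in 3 the order of the mice was the same. The share among pairs of unrelated genes was not computed. Snord73a (7.85, 7.25 and 7.55) and Snord73b (8.80, 8.10 and 8.44), which lie in Rps3a1, deviated almost alike, by 0.30, -0.30 and 0.00 and by 0.35, -0.35 and 0.00 in mice 92, 103 and 106. Rps3a1 itself was at 10.51, 10.19 and 10.38. In Rps3, Snord15a ranged over 0.77 (9.41, 8.99 and 9.76) and Snord15b over 0.17, in the same order of mice. The Ncl pair, Snora75 and Snord82, had 1 member of each class and was highest in mouse 92 and lowest in mouse 103 for both, as was Ncl (11.26, 11.01 and 11.11).

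In other pairs the members were highest in different mice. In Snhg12, Snora44 was 0.60 above its mean in mouse 103 and 0.61 below it in mouse 106, while Snora16a deviated by -0.14 and 0.11 there. The Rpl13a pair also differed, with deviations of 0.44, 0.02 and -0.45 in mice 92, 103 and 106 for Snord35a and of -0.16, 0.08 and 0.08 for Snord33. In Rpl23a, Snord42a (7.45, 7.42 and 8.18) was high in mouse 106 and Snord42b (7.46, 7.21 and 7.40) was not. Snord49b, unlike Snord49a (8.32, 8.39 and 8.24) of the same host, was high in mouse 92. By contrast, Snord95 (8.70, 8.67 and 8.60) and Snord96a, both in Rack1, were both highest in mouse 92, with ranges of 0.11 and 0.37, and the Snhg3 pair was highest in mouse 103, with ranges of 0.08 and 0.21.

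Genes of the proteins that build snoRNA particles were all transcribed above background. All 31 genes of a list of core proteins, assembly, trafficking and trimming factors and proteins of the U3 particle passed on all 3 arrays, their median range was 0.28, and none passed limma's test of spread after adjustment, with 3 (Nop10, Znhit6 and Rpap3) at an unadjusted p under 0.05. Of the C/D core, the methyltransferase gene Fbl was at 8.53, 8.93 and 8.91, Nop58 at 9.75, 9.69 and 9.93 and Snu13, whose protein binds the box itself, at 11.58, 11.67 and 11.53. Of the H/ACA core, the pseudouridine synthase gene Dkc1 was at 9.44, 9.36 and 9.27, Nhp2 at 9.03, 9.27 and 9.43 and Gar1 at 9.18, 9.15 and 9.43. The ranges of these 6 core genes lay between 0.13 and 0.40. Nop10, the smallest H/ACA protein, was highest in mouse 92, at 10.67, 10.15 and 10.19. In mouse 103 the median deviation was 0.03 for the C/D core and -0.05 for the H/ACA core. Of 16 listed non-coding and imprinted hosts 5 had a probe set of their own, and Gas5, Snhg5 (9.92, 9.37 and 9.49) and Snhg11 (6.24, 6.15 and 6.0) passed. Gas5 and Snhg5 were both highest in mouse 92 and lowest in mouse 103, and neither passed limma's test.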

How the data were processed

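The authors deposited log2 probe set levels for 35557 probe sets of 3 arrays, made with Affymetrix Expression Console per the submitters' processing notes. For its version, background correction, summarisation and normalisation, no value is stated in the notes or labels, and the log2 scale was inferred from the range of 1.76 to 14.96. Array medians were 6.70, 6.71 and 6.72. The platform annotation gave 21789 probe sets a single symbol and 1621 several, and 12147 were not listed. Of the 1621 with several symbols, 41 list a snoRNA with other symbols and were left out of the members. Probe sets of a gene were averaged. All 51 members matched RefSeq (GRCm38.p6), which served for names, lengths and containing genes; the array's own build is not given in the sources used here.

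Spread between mice was tested with limma 3.58.1 (R 4.3.3): an intercept per gene, a trended prior variance that was not robust (10.4 degrees of freedom), and the ratio of each gene's variance to its prior as an upper-tail F test, over genes above background on at least 1 array. The script was tested on simulated data, where the test found large shifts in a single mouse and missed moderate ones, so a gene that did not pass may still differ between the mice. Named genes were, per class, the 5 highest and 5 lowest, the 6 widest ranges, those nearest background, those past the test, precursor-cleaving RNAs and those sharing a host; other members were named as examples after their values were seen. The values of 1 host pair are not reported here. Members, lists and rules were chosen with earlier results of these data known. Alternatives were the background percentile, probe set choice, 3 normalisations, the prior, the filter and leaving out each mouse.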

Additional observations from a re-analysis of the deposited data

How the results depend on the processing

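The count of 48 members above background on all arrays was the same at the 90th percentile, with the highest probe set, under all 3 normalisations and with each mouse left out, and was 44 at the 99th percentile (25 C/D and 19 H/ACA). The count of members past limma's test of spread, 1, was 0 after quantile normalisation, median centring, cyclic loess or a robust prior with per-gene degrees of freedom (20, 18, 20 and 14 members at an unadjusted p under 0.05, of 648, 648, 661 and 600 genes), 3 of 44 genes called with the robust prior and bulk degrees of freedom, 2 of 22 (Snord14e and Snord22) among genes above background on all arrays, and between 1 and 6 with a mouse left out. The median deviation of C/D genes in mouse 103 lay between -0.08 and -0.01 with another mouse left out, and that in mouse 92 between 0.04 and 0.08. Without mouse 103 the median in mouse 106 was below 0, at -0.04 for C/D and -0.03 for H/ACA genes. After median centring the C/D medians were 0.14 in mouse 92 and -0.20 in mouse 103, and H/ACA medians moved to 0.09 in mouse 92 and -0.15 in mouse 103, and were 0.03 in mouse 92 and -0.03 in mouse 103 with either other mouse left out. The median for mouse 103 stayed below 0 in both classes under every normalisation. That for mouse 92 was the highest in both classes as deposited and after median centring, but not after quantile normalisation or cyclic loess. No paired analysis was possible because the labels give 1 group. Levels near the thresholds, those of Snord118, Snord38a and Snord58b, are limited by background.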
